A study of Homo sapiens with 8 samples.

Results

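The cytosolic ribosomal protein genes were taken as every row of the single-cell count table whose symbol reads RPS or RPL followed by a number, with the suffixes A, X or L, together with RPSA, RPLP0, RPLP1 and RPLP2. The rule found 86 of 18955 genes. Of these, 31 encode proteins of the small subunit, 43 encode proteins of the large subunit, 3 encode the stalk, and 9 are paralogs whose symbols end in L, L1 or AL. The rule used symbols only.

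The cells were of SUM159, an established line from a human triple-negative breast carcinoma, and all of them carried a lentiviral ClonTracer DNA barcode library. The 8 single-cell RNA libraries were made from untreated cells (pre-treatment), from cells passaged in the vehicle DMSO, and from cells passaged in 0.6 nM paclitaxel, 160 nM palbociclib, 100 nM JQ1 (libraries JQ1-A and JQ1-B), JQ1 with paclitaxel, or JQ1 with palbociclib at the same doses. JQ1 is an inhibitor of the BET bromodomain family, paclitaxel a stabiliser of microtubules and palbociclib an inhibitor of CDK4 and CDK6. DMSO, paclitaxel, JQ1-A and JQ1+paclitaxel came from one selection experiment, and palbociclib, JQ1-B and JQ1+palbociclib from another with no vehicle library of its own. Cells of parallel cultures were mixed before droplet capture, and a JQ1+palbociclib culture had died out, so a library shows the survivors of a treatment in one selection and only JQ1 alone had 2 libraries.

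The cytosolic ribosome is built from ribosomal RNA and about one copy of each ribosomal protein, and most of its protein genes are housekeeping genes with short, very abundant mRNAs. Their transcripts typically begin with a C followed by a run of pyrimidines, the 5′ terminal oligopyrimidine (TOP) motif, through which mTOR and LARP1 control their translation. The paralogs differ in this respect, being expressed at low levels in most tissues or enriched in particular ones.

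The table held 459 to 1024 cells and 10621159 to 24240835 UMIs (unique molecular identifiers, each counting one captured mRNA molecule) per library. Of 5738 cells, 5575 passed the study's filter of 1 to 15% mitochondrial UMIs and at least 2000 genes, and 13 cell barcodes occurred in more than 1 library. Median mitochondrial shares were 3.72 to 3.96% in the pre-treatment, DMSO and paclitaxel libraries and 4.69 to 7.18% in the others. The line's label was checked against markers. ESR1 and PGR reached at most 0.124 and 0.139 CPM (counts scaled to the UMI total of the library), ERBB2 lay between 5.32 and 12 CPM, the mesenchymal gene VIM between 3279 and 4502 CPM, and the leukocyte gene PTPRC at most at 0.471 CPM.

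Transcription start windows are shown for members with the largest rises or the lowest values with JQ1, because their start sequences bear on the TOP motif. Each window has 30 bases of RefSeq sequence on GRCh38.p14, 10 before the annotated start and 20 from it, read 5′ to 3′ on the gene's strand. Capitals mark a C with the unbroken run of pyrimidines after it, at least 4 where it begins at the annotated start and at least 6 where it begins within 5 bases of it, and a window without capitals has no such tract. RPLP1, RPL28 and RPL12 had the largest rises with JQ1, and RPL36A, RPL39 and RPL21 had the lowest values among members outside the paralogs. The window of RPL13, the next largest rise, is not shown and had no tract.
RPLP1, chr15:69452808-69452837, plus strand: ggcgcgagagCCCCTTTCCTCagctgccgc
RPL28, chr19:55385922-55385951, plus strand: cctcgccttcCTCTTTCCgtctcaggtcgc
RPL12, chr9:127451387-127451416, minus strand: cgatttccggCCTCTCggctttcggctcgg
RPL36A, chrX:101391001-101391030, plus strand: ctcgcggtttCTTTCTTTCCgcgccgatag
RPL39, chrX:119791611-119791640, minus strand: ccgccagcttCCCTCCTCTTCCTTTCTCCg
RPL21, chr13:27251548-27251577, plus strand: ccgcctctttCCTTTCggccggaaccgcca

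Some paralogs are set below their parents for illustration. The parents RPL10 and RPL3, not shown, had no tract, and the paralog RPL36AL, not shown either, had one within 5 bases of its start.
RPL22, chr1:6199576-6199605, minus strand: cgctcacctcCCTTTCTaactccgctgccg
RPL22L1, chr3:170870176-170870205, minus strand: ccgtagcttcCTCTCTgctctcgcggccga
RPL26, chr17:8383174-8383203, minus strand: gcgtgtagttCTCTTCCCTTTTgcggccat
RPL26L1, chr5:172958719-172958748, plus strand: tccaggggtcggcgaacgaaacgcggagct
RPS27, chr1:153990752-153990781, plus strand: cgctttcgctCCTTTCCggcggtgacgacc
RPS27L, chr15:63157458-63157487, minus strand: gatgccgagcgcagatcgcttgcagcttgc
RPL7L1, chr6:42879606-42879635, plus strand: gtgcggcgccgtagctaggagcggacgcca

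A window was found for 68 of the 86 members. A C followed by at least 4 pyrimidines stood exactly at the annotated start, on the transcribed strand, in 43 of them (63.2%), against 1104 of 27305 annotated starts of all genes (4.04%). Among non-paralogs the count was 42 of 62 (67.7%), and of the 6 paralogs with a window only RPL22L1 had the tract at its start. The same letters began 15 of 19 windows of other known TOP genes and 5 of 65 windows of mitochondrial ribosomal protein genes. The counts were made on hg19, so windows and counts were joined by gene symbol. An absent tract says only that these letters are not at the RefSeq start used here.

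Ribosomal protein mRNA made up 28.9 to 33.4% of all captured molecules, and its share was lowest in the DMSO and paclitaxel libraries and highest in the libraries with JQ1 and in the palbociclib library. Of all UMIs of a library, 30.5% came from the 86 genes in pre-treatment cells, 28.9% in DMSO and 29.1% in paclitaxel. The share was 32.7% in palbociclib, 33.0% in JQ1-A, 33.4% in JQ1+paclitaxel, 31.7% in JQ1-B and 31.5% in JQ1+palbociclib. The 4 libraries with JQ1 overlapped with the 4 without it through palbociclib alone. The exact 95% binomial intervals of these shares were at most 0.0545 percentage points wide. They cover counting error only, whereas JQ1-A and JQ1-B, with the same exposure, differed by 1.31 percentage points.

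**Figure D1:**
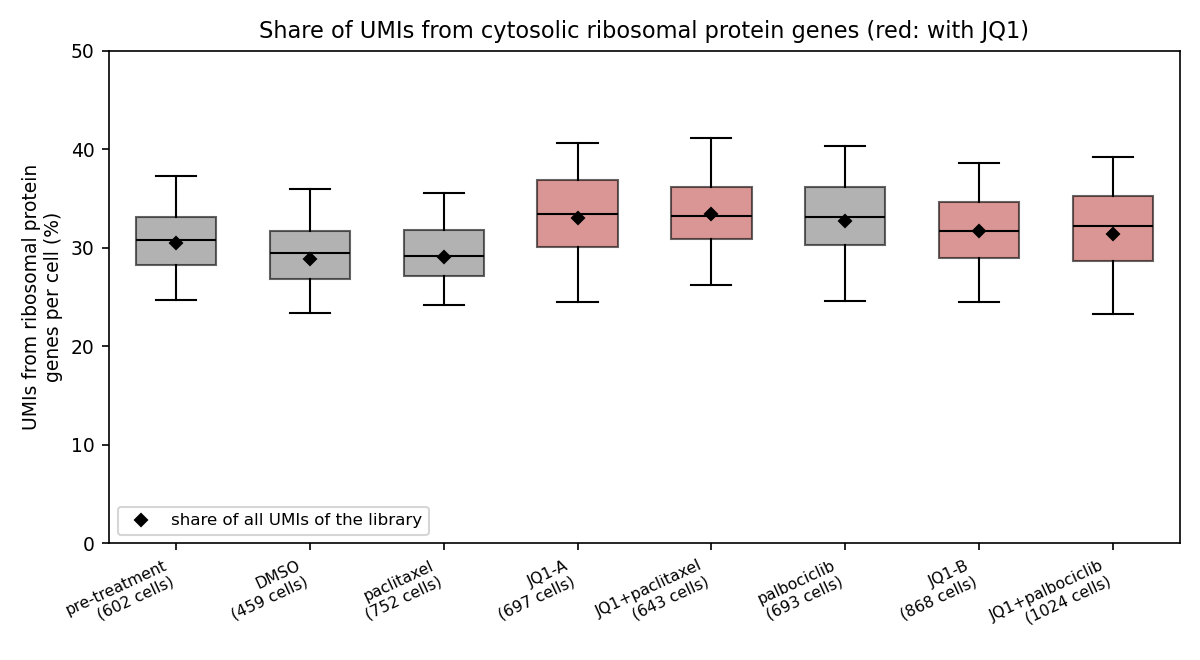
Percentage of a cell's UMIs that came from the 86 ribosomal protein genes (y axis) in each of 8 libraries (x axis, red with JQ1). Boxes give quartiles and medians over cells, whiskers the 5th to 95th percentile, and diamonds the share of the whole library. The JQ1-A, JQ1+paclitaxel and palbociclib medians (33.5, 33.3 and 33.2%) are the highest and those of paclitaxel and DMSO (29.2 and 29.5%) the lowest.

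Cells within a library varied far more than the libraries did. The median share per cell was 30.8% in pre-treatment, 29.5% in DMSO, 29.2% in paclitaxel, 33.5% in JQ1-A, 33.3% in JQ1+paclitaxel, 33.2% in palbociclib, 31.7% in JQ1-B and 32.2% in JQ1+palbociclib. The SD between cells was 3.82 to 6.67 percentage points, of which counting accounted for 0.315 to 0.344. Small-subunit and large-subunit shares rose and fell together from cell to cell, with Spearman correlations of 0.893 to 0.931 within libraries (452 to 991 cells passing the study's filter). These shares have the same denominator. Cells with more detected genes had lower shares in every library (Spearman -0.221 to -0.506, cells passing the filter).

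The share also followed the cell cycle phase called from Seurat's S and G2/M gene lists on cells thinned to 10000 UMIs. Cells called G1 had the highest median in each of the 8 libraries. In JQ1-A it was 35.2% over 331 G1 cells, 33.1% over 121 S cells and 31.9% over 198 G2/M cells. In DMSO the medians were 31.7% in 104 G1 cells, 28.9% in 172 S cells and 28.3% in 169 G2/M cells. The paclitaxel library had only 19 cells called G1, with a median of 30.9%, against 415 in palbociclib (34.4%) and 501 in JQ1+palbociclib (33.4%). The JQ1-A median was above that of DMSO in each phase, whereas that of JQ1+palbociclib was below palbociclib in each (33.4 and 34.4% in G1, 31.15 and 32.5% in S, 30.4 and 31.6% in G2/M). Phase calls rest on RNA alone and do not measure cycling.

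A small tail of cells had a low share of ribosomal protein mRNA. Below a share of 20%, a limit set after seeing the values, there were 83 cells, of which 57 had over 15% mitochondrial UMIs and 25 passed the study's filter. They made up 2.58% of JQ1-A (18 cells), 2.74% of palbociclib (19) and 2.05% of JQ1+palbociclib (21), and 0.346 to 1.33% of the other 5 libraries. In JQ1-A these 18 cells had a median ribosomal share of 2.79%, a median of 6711.5 UMIs against 21802 in the remaining cells, a mitochondrial share of 35.1% against 5.31%, and 7.42% of UMIs from the nuclear RNA MALAT1 against 1.98%. Ribosomal share, depth, mitochondrial share and MALAT1 thus moved together in these 18 cells, and the part of each was not tested. The tail was not alike in all libraries. In DMSO its 4 cells had a median of 18898 UMIs against 20664 in the remaining cells. In pre-treatment its 8 cells had a median share of 17.2%, and 5 of them passed the filter.

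Exposure to JQ1 was compared over libraries, 4 with JQ1 against 4 without, in an additive model with palbociclib and paclitaxel exposure (edgeR quasi-likelihood test, TMM scaling, adjusted p under 0.05 over 9288 genes with at least 5 CPM in at least 2 libraries). Of the 86 members 84 were tested, and 37 were called. Genes that rose numbered 32, with stalk and small-subunit genes among them, and 5 fell, of which 3 are paralogs and 2 X-linked large-subunit genes. Over all genes tested 37.6% were called, 17.8% higher and 19.7% lower. The median log2 fold change over the 84 members was 0.25 (74 of 84 above 0), against -0.003 over all genes. The levels are relative to the other RNA of a library, so more of a gene per cell and a changed mix of cells cannot be told apart.

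The counts depended on the scaling. With library totals in place of TMM the median of all genes moved to -0.20 and that of the members to 0.06, with 52 of 84 above 0 and 27 called (18 higher and 9 lower), 23 of them shared with the 37, where 40.7% of all genes were called. The distance of the members from all genes was 0.25 with both, because a change of scaling moves all genes of a library alike. Scaled without the mitochondrial genes, or without the members themselves, 37 were called. With the experiment as a term no member was called, at a median of 0.27, and 4.98% of all genes were called. Within the JQ1+paclitaxel experiment alone, 61 of 84 were called, 60 of them higher, with a median of 0.45, where 30.4% of all genes were called.

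**Figure D2:**
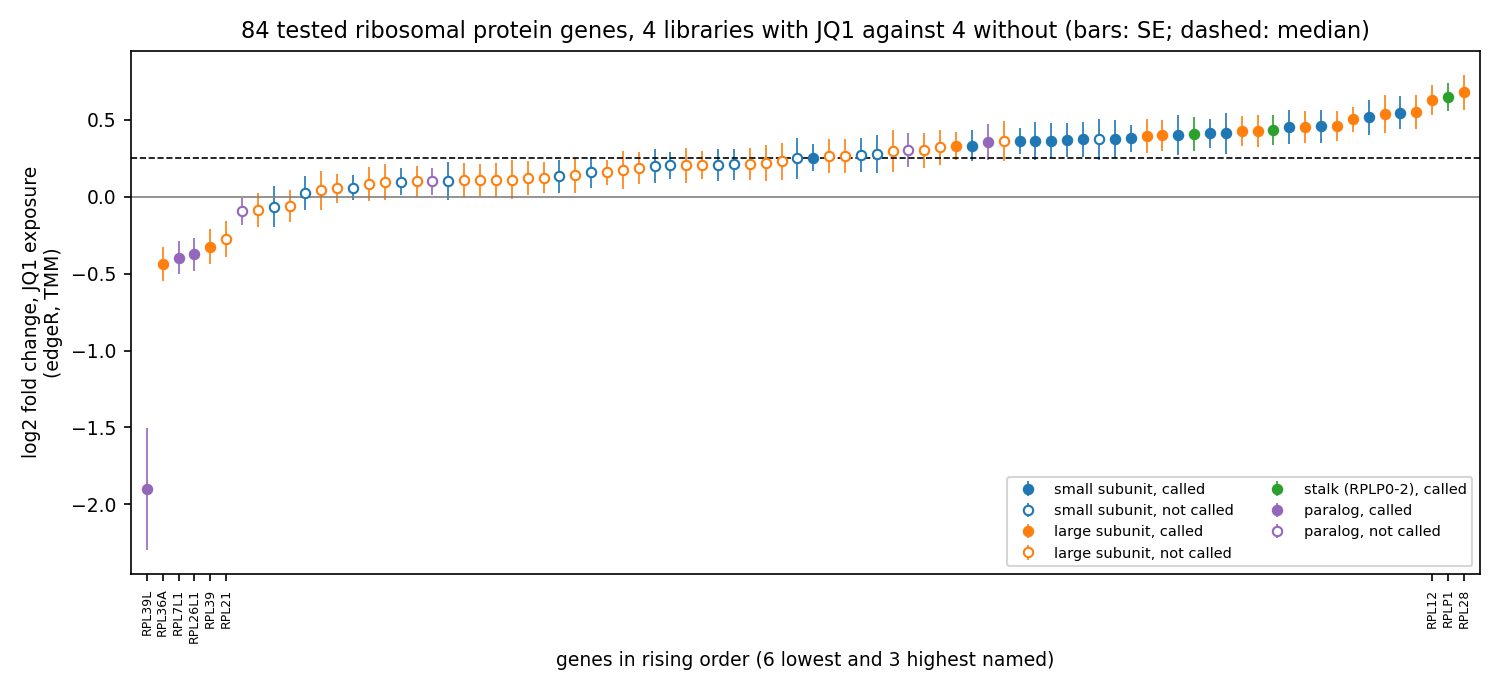
Log2 fold change with JQ1 exposure (y axis, edgeR with TMM scaling, 4 libraries against 4) of the 84 tested ribosomal protein genes in rising order (x axis, the 6 lowest and 3 highest named), coloured by class, filled where called; bars are approximate SEs, and the dashed line is the median. Values run from -1.90 in RPL39L to 0.68 in RPL28, and the small-subunit genes that were called all lie above 0.

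Among small-subunit genes 16 of 31 rose and none fell (51.6% called, against 37.6% of all genes), with a median log2 fold change of 0.33. RPS2, the member with the most UMIs, was at 15091, 14909, 15299 and 17050 CPM in pre-treatment, DMSO, paclitaxel and palbociclib and at 20705, 18839, 20176 and 18092 CPM in JQ1-A, JQ1+paclitaxel, JQ1-B and JQ1+palbociclib. The groups did not overlap, and the log2 fold change was 0.52 ± 0.11 (SE, adjusted p = 0.00977, edgeR). RPS6, the substrate of the S6 kinases, lay between 4609 and 4978 CPM without JQ1 and between 5306 and 5555 CPM with it. Its log2 fold change was 0.38 ± 0.09 (SE, adjusted p = 0.0116, edgeR).

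Other small-subunit genes did not pass the test. RPS18 was at 8796 to 12220 CPM without JQ1 and 10947 to 11614 CPM with it, the highest library being palbociclib, and its log2 fold change was 0.37 with an adjusted p of 0.0553 (edgeR). RPSA, also known as the laminin receptor precursor, was at 3154, 2972, 3145 and 3067 CPM in pre-treatment, DMSO, paclitaxel and palbociclib and at 3139, 3209, 2999 and 2505 CPM in JQ1-A, JQ1+paclitaxel, JQ1-B and JQ1+palbociclib. The JQ1+palbociclib library stood lowest in RPSA. RPS29, a small zinc-binding protein, had a log2 fold change of -0.07 ± 0.13 (SE) and differed more between the 2 JQ1 libraries (2141 CPM in JQ1-A and 1536 in JQ1-B) than between the group means.

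Among large-subunit genes 12 of 43 rose and 2 fell (32.6% called, against 37.6% of all genes), with a median of 0.21. RPL28 had the largest rise of all members. It was at 3151, 2934, 2948 and 3564 CPM in pre-treatment, DMSO, paclitaxel and palbociclib and at 4277, 4828, 4188 and 4289 CPM in JQ1-A, JQ1+paclitaxel, JQ1-B and JQ1+palbociclib. The groups did not overlap (log2 fold change 0.68 ± 0.11, SE, adjusted p = 0.00401, edgeR). RPL12, which sits at the base of the stalk, was at 4057 to 5085 CPM without JQ1 and 5949 to 6391 CPM with it (0.63 ± 0.10, SE, adjusted p = 0.00301, edgeR). RPL13 was at 6493 to 7163 CPM without and 7741 to 9254 CPM with JQ1, lowest of the latter in JQ1+palbociclib (0.55 ± 0.11, SE, adjusted p = 0.00753, edgeR).

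The 2 large-subunit genes that fell, RPL36A and RPL39, lie on the X chromosome. RPL36A was at 459, 572, 455 and 420 CPM in pre-treatment, DMSO, paclitaxel and palbociclib and at 367, 285, 309 and 269 CPM in JQ1-A, JQ1+paclitaxel, JQ1-B and JQ1+palbociclib, so that the groups were separate (log2 fold change -0.44 ± 0.11, SE, adjusted p = 0.0156, edgeR). RPL39, a very small protein of the exit tunnel, was at 3767, 3927, 3574 and 3521 CPM in those libraries without JQ1 and at 2971, 2660, 2358 and 2327 CPM in those with it (-0.32 ± 0.11, SE, adjusted p = 0.0483, edgeR). The 4 members on the X chromosome, which also include RPL10 and RPS4X, had log2 fold changes of -0.44 to 0.06 with a median of -0.14. The median over the 306 tested genes of that chromosome was -0.46. The 12 members on chromosome 19 had a median of 0.44, against 0.08 over all tested genes there. The part of gene position in these values was not tested.

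RPL21 was lower with JQ1 on plain CPM but did not pass the test. It was at 6103, 5302, 5874 and 5168 CPM in pre-treatment, DMSO, paclitaxel and palbociclib and at 4157, 4916, 4059 and 3211 CPM in JQ1-A, JQ1+paclitaxel, JQ1-B and JQ1+palbociclib. After TMM scaling the groups overlapped (log2 fold change -0.28 ± 0.12, SE, adjusted p = 0.0964, edgeR). RPL5 and RPL11, which together with 5S rRNA bind MDM2, did not pass either, at 0.19 ± 0.11 and 0.22 ± 0.12 (SE, adjusted p = 0.193 and 0.162, edgeR). RPL10, among the members with the most UMIs, had a log2 fold change of 0.05 ± 0.09 (SE), and RPL3 and RPL7 were at 0.30 and 0.32 with adjusted p of 0.115 and 0.0533 (edgeR).

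All 3 stalk genes rose, where 17.8% of all genes did. RPLP1 was at 8211, 7710, 8623 and 9026 CPM in pre-treatment, DMSO, paclitaxel and palbociclib and at 11403, 10931, 11590 and 11927 CPM in JQ1-A, JQ1+paclitaxel, JQ1-B and JQ1+palbociclib. The lowest library with JQ1 was well above the highest without it, and the log2 fold change was 0.65 ± 0.09 (SE, adjusted p = 0.00225, edgeR). RPLP2, the partner of RPLP1 in the stalk dimers, averaged 4762 ± 300.2 CPM with JQ1 and 4048 ± 371 CPM without (SD, n = 4), 0.43 ± 0.10 on the log2 scale (SE, adjusted p = 0.0104, edgeR). RPLP0, which anchors those dimers, averaged 4524 ± 383 and 3904 ± 200 CPM (SD, n = 4), 0.41 ± 0.11 on the log2 scale (SE, adjusted p = 0.0239, edgeR). On plain CPM the RPLP2 and RPLP0 libraries overlapped.

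**Figure D3:**
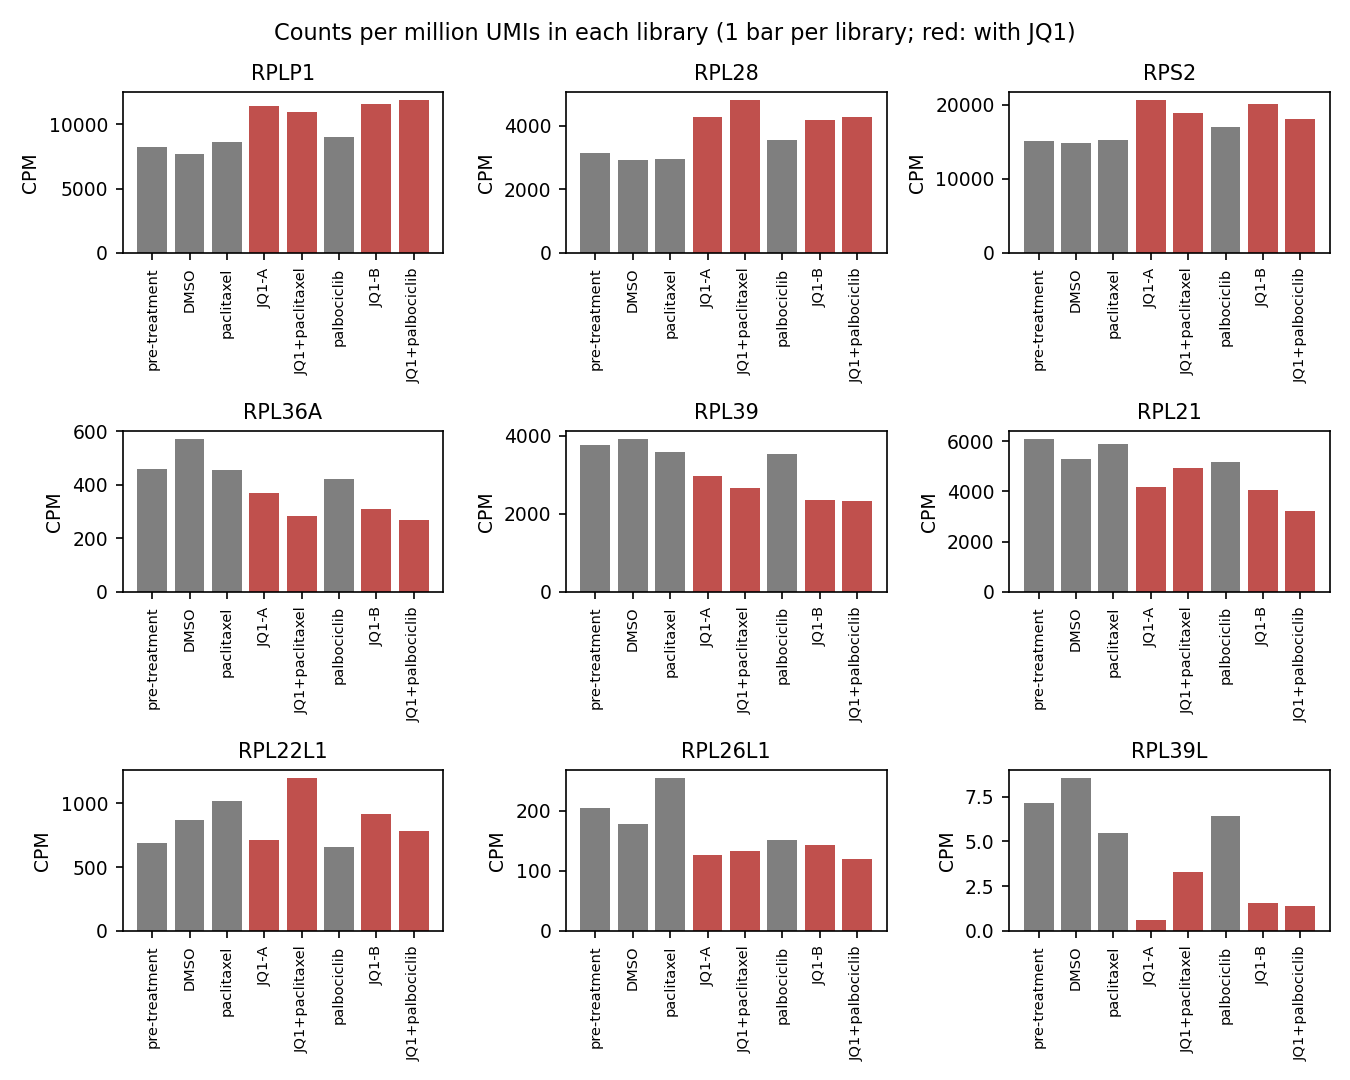
CPM, counts scaled to the library's UMI total (y axes, from 0), of 9 ribosomal protein genes in each of the 8 libraries (1 bar per library, red with JQ1). RPLP1, RPL28 and RPS2 are higher in every library with JQ1, RPL36A, RPL39 and RPL39L are lower in every one, and RPL22L1 overlaps between the groups.

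Among the paralogs falls outnumbered the rises. Of the 7 that were tested 3 fell and 1 rose (57.1% called, against 37.6% of all genes), and the median was -0.10. RPL39L, a paralog of RPL39 best known from testis, was at 7.16, 8.57, 5.45 and 6.40 CPM in pre-treatment, DMSO, paclitaxel and palbociclib and at 0.618, 3.28, 1.58 and 1.36 CPM in JQ1-A, JQ1+paclitaxel, JQ1-B and JQ1+palbociclib. These levels rest on 91 to 106 UMIs per library without JQ1 and on 10, 47, 32 and 33 UMIs with it. The groups were separate (log2 fold change -1.90 ± 0.40, SE, adjusted p = 0.00855, edgeR).

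RPL7L1, which takes part in ribosome assembly, was at 109, 102, 127 and 76.1 CPM in pre-treatment, DMSO, paclitaxel and palbociclib and at 66.4, 65.5, 73.4 and 65.6 CPM in JQ1-A, JQ1+paclitaxel, JQ1-B and JQ1+palbociclib (log2 fold change -0.40 ± 0.10, SE, adjusted p = 0.0203, edgeR). Its palbociclib library was close to those with JQ1, and after TMM scaling the groups overlapped. RPL26L1 was at 204, 177, 255 and 151 CPM without JQ1 and at 127, 132, 143 and 120.2 CPM with it, in the same order of libraries (-0.37 ± 0.11, SE, adjusted p = 0.0266, edgeR). Its parent RPL26 was at 0.14 ± 0.12 (SE). RPL22L1 was the paralog that rose, at 687, 867, 1017 and 661 CPM without JQ1 and 713, 1203, 921 and 786 CPM with it (0.35 ± 0.11, SE, adjusted p = 0.0402, edgeR), but its groups overlapped widely. Its parent RPL22 was at 0.08 ± 0.11 (SE).

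RPS27L and RPL36AL had log2 fold changes of 0.10 and -0.10 and did not pass the test. RPS27, the parent of the former, was at 0.25 ± 0.13 (SE, adjusted p = 0.164, edgeR). RPL10L and RPL3L did not reach the filter on low counts and averaged 0.184 and 0.060 CPM. Many ribosomal protein genes have processed pseudogenes of nearly the same sequence. Read-through rows that join a member with its neighbour held at most 0.282 CPM.

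Of the 37 called members, 25 also had libraries that did not overlap after TMM scaling. Of all 84 members, 23 were higher in each library with JQ1 than in each without and 4 were lower in each, where 11.7% and 12.8% of all genes were. On plain CPM the counts were 15 and 9, where 5.45% of all genes were higher and 22.7% lower. Leaving out single libraries changed the number of calls but turned the sign of none of the 37. It was 14 without JQ1-A, 19 without pre-treatment, 19 without DMSO, 20 without JQ1-B, 21 without paclitaxel, 21 without JQ1+paclitaxel, 58 without JQ1+palbociclib and 68 without palbociclib. The share of all genes called moved with it, being 19.0% without JQ1-A, 21.4 to 33.4% in the 5 fits with 19 to 21 calls, 45.0% without JQ1+palbociclib and 45.7% without palbociclib. Those called in each of the 8 numbered 11 and included RPL39L, RPLP2, RPL4, RPL8, RPS2, RPL13A, RPL13, RPL12, RPLP1 and RPL28.

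Pairs of single libraries show where the members moved as a block and where they did not. These pairs have no replicates and no test. In pairs with the same exposure the median log2 ratio of TMM-scaled CPM over the 84 members was -0.09 for DMSO over pre-treatment (15 of 84 higher) and -0.06 for JQ1-B over JQ1-A (12 of 84 higher). Where JQ1 was added within an experiment it was 0.38 for JQ1-A over DMSO (76 higher) and 0.44 for JQ1+paclitaxel over paclitaxel (79 higher), but -0.06 for JQ1+palbociclib over palbociclib (33 higher). The first 2 of these lay farther from 0 than the pairs of equal exposure, and the third lay at the distance of those pairs.

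**Figure D4:**
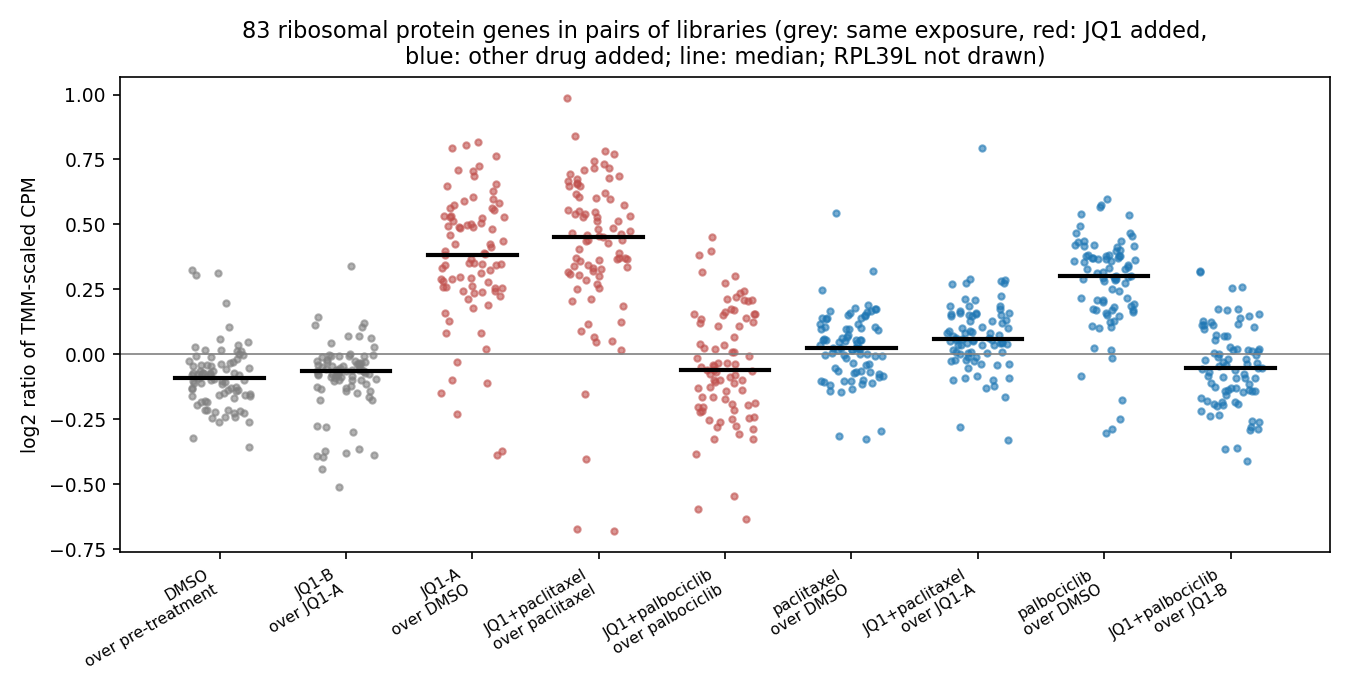
Log2 ratio of TMM-scaled CPM (y axis) of 83 ribosomal protein genes (points; RPL39L is not drawn) in 9 pairs of single libraries (x axis), grey for the same exposure, red where JQ1 and blue where another drug was added; lines are medians. JQ1-A over DMSO and JQ1+paclitaxel over paclitaxel lie mostly above 0, and JQ1+palbociclib over palbociclib is spread around 0.

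The members that were called did not all lose their direction in the palbociclib pair. Of the 32 that rose with JQ1, 31 were higher in JQ1-A than in DMSO, 32 in JQ1+paclitaxel than in paclitaxel and 28 in JQ1+palbociclib than in palbociclib, though with a median of 0.16 in the last pair against 0.56 and 0.62 in the others. All 5 that fell were lower in each of the 3 pairs. These pairs are part of the data of the fit and are given as a description. As a ratio of TMM-scaled CPM, RPLP1 was 1.76-fold (95% exact Poisson interval 1.75 to 1.78) higher in JQ1-A than in DMSO and 1.37-fold (1.36 to 1.38) higher in JQ1+palbociclib than in palbociclib. RPLP0 was 1.55-fold (1.53 to 1.57) higher in the former pair and 1.01-fold (0.996 to 1.02) in the latter, where its plain CPM were 3974 in JQ1+palbociclib and 4093 in palbociclib, so that the direction turned with the scaling. The intervals cover counting error only.

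Palbociclib exposure (2 libraries against 6) called none of the 84 members in edgeR or in DESeq2, where edgeR called 0.28% of all genes and DESeq2 5.54%. At an unadjusted p under 0.05 there were 2, RPL36AL (log2 fold change -0.29 ± 0.11, SE) and RPS27A (0.29 ± 0.10, SE), and 22.1% of all genes. RPS27A, which encodes ubiquitin fused to a small-subunit protein, was at 5314 CPM in palbociclib and 5701 in JQ1+palbociclib, against 4387 to 4827 CPM in the other 6 libraries. After TMM scaling 2 members, RPS27A and RPS4X, were higher in both palbociclib libraries than in the others and RPL36AL was lower, where 7.67% and 7.39% of all genes were. The median over members was 0.08, but it rested on which library was used. It was -0.14 without the palbociclib library and 0.29 without JQ1+palbociclib, where RPS18, RPS12, RPL27A and RPL13A were called higher, 4 of 84 members against 10.2% of all genes. In either fit palbociclib had a single library, which is assumed to vary like the other groups. The palbociclib library alone was 0.30 above DMSO in the median member (77 of 84 higher), a pair that crosses the experiments, and JQ1+palbociclib was -0.05 relative to JQ1-B (31 of 84 higher).

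Whether the JQ1 difference changed in the presence of palbociclib was fitted as an interaction, a model added after the data had been seen, with 2 residual degrees of freedom. Both palbociclib libraries came from the experiment with no vehicle library. The JQ1 difference without palbociclib used pre-treatment and libraries of both experiments. The interaction thus cannot be told apart from a difference between experiments. No member passed the adjusted threshold, and 0.0108% of all genes did. At an unadjusted p under 0.05 there were 29 of 84 members, against 17% of all genes. The estimate was below 0 for 82 of 84 members, with a median of -0.34 against -0.01 over all genes. RPLP0 had the smallest p of the members (-0.58 ± 0.16, SE, adjusted p = 0.157, edgeR), followed by RPS2 (-0.54 ± 0.15, SE, adjusted p = 0.157, edgeR). The median mitochondrial share was 5.58% in palbociclib and 7.18% in JQ1+palbociclib, the highest of the 8 libraries, and its part was not tested.

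Paclitaxel exposure (2 libraries against 6) called no member in edgeR or DESeq2, which called 0% and 0.0969% of all genes. The only member at an unadjusted p under 0.05, where 4.25% of all genes were, was RPL22L1, at 0.51 ± 0.14 on the log2 scale (SE, adjusted p = 0.885, edgeR). By TMM-scaled CPM it was 1.19-fold (95% exact Poisson interval 1.16 to 1.22) higher in paclitaxel than in DMSO and 1.73-fold (1.69 to 1.77) higher in JQ1+paclitaxel than in JQ1-A. It was also 1.25-fold (1.22 to 1.29) higher in DMSO than in pre-treatment, without any drug. No member was higher and 1, RPS27L, was lower in both paclitaxel libraries than in the others, where 1.65% and 1.63% of all genes were. The median over members was 0.04. The interaction of JQ1 with paclitaxel called none of the 84 and 0.388% of all genes, and 2 members, RPL39L and RPL3, had an unadjusted p under 0.05, where 17% of all genes did.

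Single genes departed from the common movement by different amounts. The departure of a gene in a library was its log2 CPM, centred on its mean over libraries, minus the median of that value over the 81 members with a mean of at least 20 CPM. The range of the departure over the 8 libraries had a median of 0.35, exceeded 0.5 in 15 members and exceeded 1 in 3. The 3 were RPL36A (1.21, highest in DMSO and lowest in JQ1+paclitaxel), RPL26L1 (1.14, from paclitaxel to JQ1+palbociclib) and RPL7L1 (1.13, from paclitaxel to JQ1+paclitaxel). RPL21 (0.93), RPL22L1 (0.84), RPL39 (0.83), RPL36AL (0.67) and RPS29 (0.60) followed, then RPL12 (0.58) and RPLP1 (0.56), which were highest in JQ1+palbociclib. Thus 4 of the 10 were paralogs, although paralogs were 5 of the 81.

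JQ1 differences were also set against transcript length and start sequence. Over 77 members the Spearman correlation of the log2 fold change with mRNA length was 0.02. Lengths were those of 1 annotated transcript per gene, up to 7573 bases in RPL37, and need not be those of the transcripts expressed here. Leaving out the paralogs, the 42 tested members with a tract at the start had a median log2 fold change of 0.21 (17 higher and 2 lower), and the 20 whose window had none at the start had 0.23 (6 higher and none lower), 4 of them with a tract within 5 bases of it. Over all genes tested 17.8% were called higher and 19.7% lower. Of the paralogs, RPL26L1 and RPL7L1, without a tract, fell, and RPL22L1, with one, rose. RPL36A, RPL39 and RPL21, shown above with uninterrupted tracts, were among the lowest, and RPLP1 and RPL28, also with tracts, among the highest.

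Within the JQ1+palbociclib library the share of ribosomal protein mRNA differed between groups of cells by more than it did between libraries. Its 991 cells that passed the filter were clustered with the 86 genes left out, at the study's resolution of 0.4, and gave 4 clusters. Median shares were 32.4% in cluster 1 (529 cells), 31.6% in cluster 2 (202 cells), 36.8% in cluster 3 (131 cells, led by the matrix genes COL1A1 and TIMP3) and 28.2% in cluster 4 (129 cells, led by PKIB, ADIRF and GPRC5A). The interquartile ranges of clusters 3 and 4 did not overlap (33.8 to 38.8% and 25.5 to 30.6%). The median mitochondrial share was 5.32% in cluster 3 and 7.63% in cluster 4, and their median UMIs were 22011 and 21084. Cells of 1 library are not replicates, so these values carry no test.

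The clusters also differed in single members. Cluster 3 had 5610 CPM of RPL21 against 2845 in the remaining cells, 3908 against 2293 CPM of RPSA and 11234 against 7224 CPM of RPL13, and 60 of 81 members were higher in it. RPL21 and RPSA, which were lowest in this library as a whole, were thus about as high in cluster 3 as in the libraries without JQ1 (5168 to 6103 and 2972 to 3154 CPM), or higher. In cluster 4 only 7 of 81 members were higher than in the remaining cells, among them RPS2 (22075 against 17624 CPM) and RPLP0 (4716 against 3883 CPM). RPS14 was at 2897 against 5673 CPM there and RPL22L1 at 374 against 845 CPM. Cluster 2 had 1453 CPM of RPL39 against 2568.

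Genes that serve the cytosolic ribosome without being part of it, and those of the mitochondrial ribosome, mostly had log2 fold changes below 0. Of 107 tested ribosome biogenesis factors 45 fell and 2 rose with JQ1 (median -0.39), the largest falls being GAR1, of the H/ACA snoRNPs (67.2 to 108 CPM in pre-treatment, DMSO and paclitaxel, 39.4 in palbociclib, 24.2 to 27.1 with JQ1, log2 fold change -1.24 ± 0.20, SE, adjusted p = 0.00325, edgeR), LYAR (-1.19) and LAS1L (-1.05). Of 71 tested mitochondrial ribosomal protein genes 46 fell and none rose (median -0.45), among them MRPL39 (-1.20), MRPL15 (-1.0) and MRPS31 (-0.98). Of 43 initiation factor genes 13 fell and 4 rose (median -0.16), led by MCTS1 (-1.09), EIF1AX (-0.76) and EIF4A3 (-0.73). Called were 43.9% of the biogenesis factors, 64.8% of the mitochondrial ribosomal protein genes and 39.5% of the initiation factors. Over all genes the share was 37.6% (17.8% higher and 19.7% lower). The part of gene position in these lists was not tested. Over the 306 tested genes of the X chromosome the median was -0.46.

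**Figure D5:**
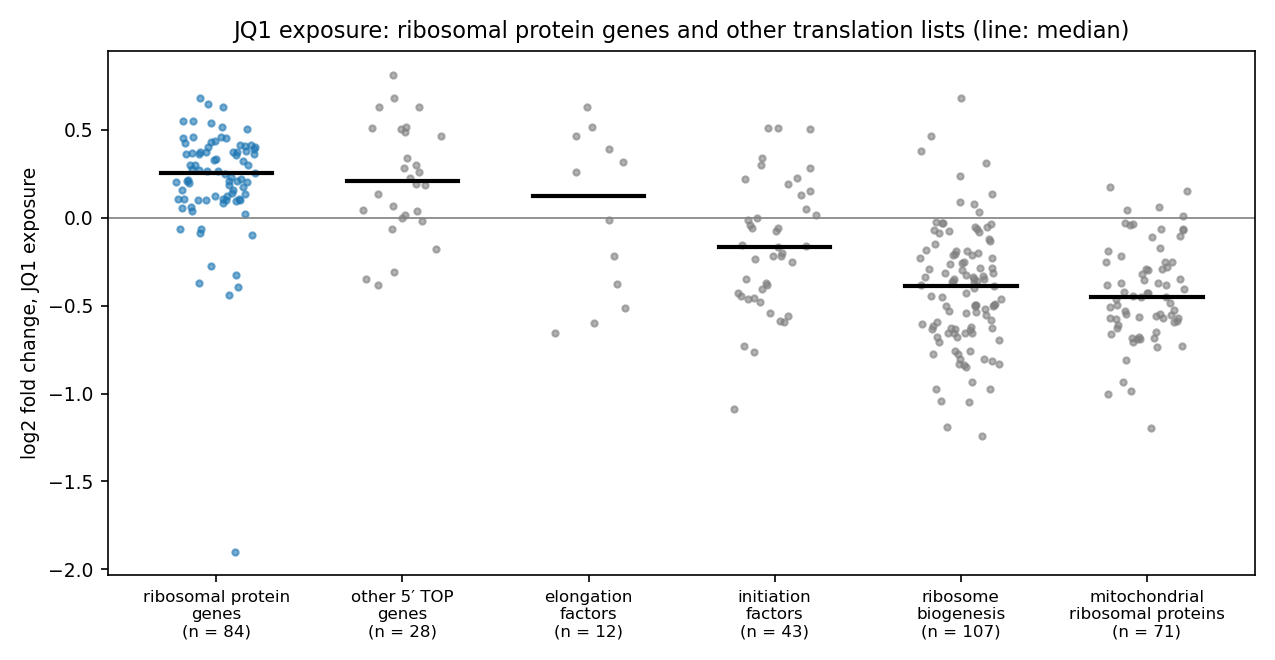
Log2 fold change with JQ1 exposure (y axis, edgeR, 4 libraries against 4) of single genes (points) in the ribosomal protein genes and 5 other lists of translation genes (x axis, with the number tested); lines are medians. The ribosomal protein genes and other TOP genes have medians of 0.25 and 0.21, and biogenesis factors and mitochondrial ribosomal proteins -0.39 and -0.45.

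Other genes with TOP mRNAs had a median log2 fold change near that of the ribosomal protein genes. Of 28 tested 10 rose and 3 fell (46.4% called, against 37.6% of all genes), with a median of 0.21. They included COMMD6 (log2 fold change 0.81), GLTSCR2, also a biogenesis factor (0.68), EEF1D (0.63 ± 0.08, SE, adjusted p = 0.00135, edgeR) and TPT1 (0.63 ± 0.13, SE, adjusted p = 0.00735, edgeR), and NPM1 fell (-0.35). FAU, which encodes a ubiquitin-like protein fused to a small-subunit protein, did not pass the test (0.04 ± 0.09, SE, adjusted p = 0.712, edgeR).

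Of 12 tested genes on the elongation list 3 rose, EEF1D, EEF2 (0.52) and EEF1B2 (0.26). The 4 that fell were EEF1E1 (-0.66), EIF5A (-0.60), TSFM (-0.51) and TUFM (-0.38). The list holds the mitochondrial factors TSFM and TUFM and, by its name, EEF1E1, a part of the tRNA synthetase complex. Of 9 snoRNA host genes 1 rose, ZFAS1 (0.69 ± 0.14, SE, adjusted p = 0.00706, edgeR), and SNHG10 (-0.47) and SNHG9 (-0.43) fell. Of 19 regulators of TOP translation 3 rose and 2 fell, EIF4EBP2 (0.93), TSC2 (0.61) and RICTOR (0.61) being higher. LARP1, which binds TOP mRNAs, was at -0.11 ± 0.11 (SE) and MTOR at 0.21 ± 0.17 (SE), and neither passed the test. Called were 58.3% of the elongation list, 33.3% of the snoRNA host genes and 26.3% of the TOP regulators, against 37.6% of all genes. The S-phase list had 16 of 38 genes lower and none higher with JQ1 and the G2/M list 18 of 54 lower and none higher. These were 42.1% and 33.3% of the lists, where 19.7% of all genes were called lower. The part of cell cycle in the ribosomal protein values was not tested over libraries. With paclitaxel exposure 102 of 107 biogenesis factors had a log2 fold change above 0 (median 0.30), and none was called. Of all 9288 genes tested 4873 were above 0 (median 0.014). So were 62 of 71 mitochondrial ribosomal protein genes, 34 of 38 S-phase genes and 49 of 54 G2/M genes (each with a median of 0.19).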

How the data were processed

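The authors deposited raw UMI counts for each gene in each cell, from 10x Genomics 3′ libraries processed with CellRanger on hg19, and a file naming each cell's library. No column of per-sample values was left unused (0). Cells are not replicates, so counts were totalled over every cell of a library. The test used edgeR 4.0.16 in R 4.3.3 (TMM, quasi-likelihood, additive exposures, 4 residual degrees of freedom) on the 9288 genes reaching 5 CPM in 2 or more of the 8 libraries. SEs are approximate, from the fold change and F. Only JQ1 alone had 2 libraries, so p-values rest on the spread of all 8 libraries around the additive fit. That spread includes the difference of pre-treatment from DMSO and departures from additivity, so it is not a spread between replicates. Depth was at least 10621159 UMIs per library, and intervals (95%) cover counting error only. The script was tested on simulated data. DESeq2 1.42.0, other scalings, filters, cell sets and left-out libraries were alternatives. Phases and clusters used Seurat 5.3.0 on cells passing the study's filter. Cells were thinned to 10000 UMIs for phases (5487 kept, 88 shallower left out), and clusters used 2000 variable genes and 20 principal components. No doublet caller was run. Medians over library pairs used TMM-scaled CPM + 1, and the plot of pairs no pseudocount. Named genes were the 5 largest called rises and falls, the 10 largest departures, the 3 highest means, paralogs with parents, members of known role, and up to 3 called genes per other list. Others given with values were chosen after these were seen. The members and lists were chosen with earlier results of these data known. CD3E, PECAM1, HBB and ALB were not analysed here. A few genes that the rule would name are not reported here.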

Additional observations from a re-analysis of the deposited data

Results flagged for a closer look

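The share of library UMIs from ribosomal protein genes was 32.7% in palbociclib, above pre-treatment (30.5%) and DMSO (28.9%), whereas with JQ1 it was 31.5% in JQ1+palbociclib, below JQ1-A (33.0%) and JQ1-B (31.7%). The first comparison crosses the experiments. JQ1+palbociclib and JQ1-B, of one experiment, differed by less than JQ1-A and JQ1-B did (1.31 percentage points), and their medians per cell lay the other way (32.2 and 31.7%). The difference in share was not tested.

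In 64 checks for a library far from the others of its group, 3 members had one among the 4 libraries with JQ1, where chance gives about 1 in 20 checks. RPL7L1 was at 73.4 CPM in JQ1-B against 65.5 to 66.4 CPM in the others. RPL28 was at 4828 CPM in JQ1+paclitaxel against 4188 to 4289 CPM. RPL12 was at 6391 CPM in JQ1+palbociclib against 5949 to 5983 CPM.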

How the results depend on the processing

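The JQ1 median over members stayed above 0 in each alternative, from 0.055 with library totals to 0.45 in the JQ1+paclitaxel experiment alone, and from 0.18 to 0.38 with single libraries left out. Calls among members numbered 0 with the experiment as a term, 61 in the JQ1+paclitaxel experiment and 14 to 68 with single libraries left out. With the experiment as a term the calls were 2 for biogenesis factors, 7 for mitochondrial ribosomal proteins, 1 for initiation factors, 0 for other TOP genes, 1 for elongation factors, 0 for snoRNA hosts and 1 for TOP regulators. That fit called 4.98% of all genes. With library totals 71 biogenesis factors were called, where 40.7% of all genes were. With single libraries left out the ranges were 26 to 70 for biogenesis factors, 29 to 52 for mitochondrial ribosomal proteins, 3 to 25 for initiation factors, 5 to 18 for other TOP genes, 3 to 8 for elongation factors, 1 to 5 for snoRNA hosts and 1 to 8 for TOP regulators. The share of all genes called ran from 19.0 to 45.7% over the same fits. The palbociclib median ran from -0.14 to 0.29 and its calls from 0 to 4, and paclitaxel calls stayed at 0. The cause was not tested, though a left-out library or an added term also leaves fewer degrees of freedom. With UMIs outside mitochondrial genes as the denominator, median shares per cell were 32.2% in pre-treatment, 30.8% in DMSO, 35.3% in JQ1-A, 35.0% in JQ1+paclitaxel, 35.2% in palbociclib, 33.3% in JQ1-B and 34.9% in JQ1+palbociclib. Over named members and alternatives, 477 values kept their direction and side of the threshold, 30 newly passed it, 51 no longer did, and none turned sign among called values. Replicate numbers did not pair the libraries, because the groups share number 1 alone and only JQ1 has a replicate 2. The main fit left the experiment out. Libraries of the same experiment were set side by side without a test, and the experiment was added as a term in an alternative. The depth limits RPL39L, with as few as 10 UMIs in a library.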
